A study of Mus musculus with 20 samples.

Results

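The cyclin-dependent kinase inhibitor gene Cdkn2a and 8 related brakes of the G1 to S transition were followed through mouse gastric organoids with and without p53. The 9 genes were the INK4 inhibitors Cdkn2a, Cdkn2b, Cdkn2c and Cdkn2d, the CIP/KIP inhibitor Cdkn1b, the retinoblastoma family genes Rb1, Rbl1 and Rbl2, and the Polycomb gene Bmi1, out of 24047 genes counted. Cdkn2a was picked on measured values, because it was higher in p53 knockout lines, so its difference between genotypes is given as a description with no test. The other 8 genes were taken as relatives in function. All 9 passed the filter on low counts, which kept 13476 genes. RNA sequencing covered 20 libraries from 8 organoid lines of the BL/6 strain, which are epithelial cultures grown from stomach in conditioned medium. Wild-type (WT) lines 300 and 1269 were non-dysplastic (4 libraries), and WT lines 565 and 752 were dysplastic (6 libraries), dysplasia being disordered growth that can precede cancer. Among lines labelled p53 knockout (KO), 3 had the knockout made in vivo, namely the non-dysplastic line 650 (2 libraries) and the dysplastic lines 794 and 801 (6 libraries). In line 1270, which was non-dysplastic (2 libraries), it was made ex vivo. The sources used here do not give the knockout allele, how it was induced or the age of the animals. Ex vivo knockout was represented by 1 line, and no dysplastic line had it.

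INK4 proteins bind CDK4 and CDK6 and keep them from their D-type cyclins, and p27, the product of Cdkn1b, inhibits cyclin E and cyclin A complexes of CDK2. When these kinases are held back, the retinoblastoma proteins stay unphosphorylated and keep E2F factors from driving S phase genes. Cdkn2a has a pair of first exons that lead to separate proteins, p16INK4a and p19ARF. ARF binds Mdm2, the ubiquitin ligase of p53, and so stabilises p53, and Bmi1 is a subunit of Polycomb repressive complex 1 known for silencing the Ink4a/Arf locus. A count per gene adds transcripts from both first exons, so the p16 and ARF messages could not be told apart here.

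The 2 starts of Cdkn2a and the start of Rbl1 are shown because they hold, or lack, an E2F motif, the element that Rb family proteins control through E2F. The sequences are the 250 bases before the annotated start, from RefSeq on GRCm38.p6, read along the minus strand on which these genes lie. The Cdkn2a starts are 12427 bases apart. The upstream one, of the ARF first exon, follows chr4:89294620-89294869, the downstream one, of the p16 first exon, follows chr4:89282193-89282442, and the Rbl1 window is chr2:157204535-157204784. Capitals mark the motif.
Cdkn2a, ARF start: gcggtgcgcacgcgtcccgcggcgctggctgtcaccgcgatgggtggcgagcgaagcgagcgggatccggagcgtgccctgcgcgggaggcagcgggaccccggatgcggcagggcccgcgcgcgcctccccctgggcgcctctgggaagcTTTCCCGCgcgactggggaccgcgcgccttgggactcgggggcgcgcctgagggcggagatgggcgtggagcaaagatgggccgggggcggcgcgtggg
Cdkn2a, p16 start: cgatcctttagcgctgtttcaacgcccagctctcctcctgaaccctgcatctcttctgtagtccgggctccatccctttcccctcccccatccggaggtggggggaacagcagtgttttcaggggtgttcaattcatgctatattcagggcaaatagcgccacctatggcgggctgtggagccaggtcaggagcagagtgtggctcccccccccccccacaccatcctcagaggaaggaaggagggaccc
Rbl1: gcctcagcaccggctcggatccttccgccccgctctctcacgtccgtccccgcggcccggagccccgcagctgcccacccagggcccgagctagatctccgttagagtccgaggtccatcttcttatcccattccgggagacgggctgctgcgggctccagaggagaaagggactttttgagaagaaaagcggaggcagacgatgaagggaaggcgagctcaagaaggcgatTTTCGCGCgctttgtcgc
The letters searched on both strands were TTTCCCGC, TTTGGCGC, TTTGCCGC and TTTCGCGC. The ARF window held TTTCCCGC, beginning 99 bases before the start, and the Rbl1 window held TTTCGCGC, beginning 18 bases before it. The p16 window held none. Of the 9 genes, 8 had windows in the table, 10 in all, and 2 of these 10 held a match. Among all 32851 windows, 611 (1.86%) held one. A match is a description of the letters and not evidence of binding. The counts were made on the earlier build mm9, so these positions do not come from the count data.

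Trp53, which encodes p53, was low in each line labelled KO. It was 112, 161, 154 and 122 CPM (counts scaled by the TMM-adjusted total) in WT lines 300, 1269, 565 and 752. In KO lines it was 26.9 (650), 4.99 (1270), 6.92 (794) and 22.2 CPM (801). The libraries held 5669521 to 16323270 counts each. They were summed by line, to 22217126 to 36880593 counts, because the line is the unit of replication. Whether each line comes from an animal of its own is not stated in the labels, and p-values therefore reflect how far these lines scatter, and that scatter may be technical. The summed CPM of 11 gastric epithelial markers was between 10839 and 16853 in all 8 lines. Single markers of this list were less alike, and Tff2 ran from 15.1 CPM in line 1269 to 1123 CPM in line 300. Pit cell markers differed between lines as well. Tff1 was between 0.065 and 0.43 CPM, and Gkn1 ran from 22.4 CPM in line 650 to 3760 CPM in line 794. Muc5ac was 461 CPM in line 794 and 185 CPM in line 1270, and at most 8.54 CPM in the other 6 lines. Gkn2 was 390 and 417 CPM in lines 794 and 1270 and at most 72.7 CPM in the others. The part of these genes in the high Cdkn2a of line 794 was not tested. Lines 300 and 650 had Xist at 0.57 and 0.65 CPM, and the other 6 lines, which include all dysplastic ones, had it between 317 and 668 CPM. The Y-linked gene Ddx3y was 44.8 and 23.6 CPM in lines 300 and 650 and at most 0.08 CPM in the other 6. By both genes, lines 300 and 650 were male and the other 6 lines female.

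In total 6 libraries stood apart, namely the last-numbered library of lines 300, 650, 565, 752, 794 and 801. They were chosen on expression values. Within these lines, the difference of that library from its sisters correlated across genes with transcript length, with Spearman's rho between -0.64 and -0.49 over 12863 genes. For pairs that hold none of the 6, library 2 minus library 1, rho was 0.05, -0.09, 0.16, 0.39, 0.34 and 0.19 in lines 1269, 1270, 565, 752, 794 and 801. Genes are not independent replicates, so these are descriptions. Each combination of genotype and dysplasia held such libraries, but the line made ex vivo held none. Fitted log2 fold changes of Cdkn2a for KO and for dysplasia are given with and without them. Its line levels, its ratios and its levels per kilobase include them.

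All 4 KO lines had more Cdkn2a than any WT line, and the dysplastic KO lines had the most. Among WT lines its level was 17.8 CPM (line 300), 20.8 CPM (line 1269), 21.8 CPM (line 752) and 28.4 CPM (line 565). Among KO lines its level was 58.8 CPM (line 1270), 64.2 CPM (line 650), 126 CPM (line 801) and 285 CPM (line 794). These values rest on 373 to 976 counts in WT lines and on 1480 to 9869 counts in KO lines. The WT mean was 22.2 ± 4.45 CPM (SD, n = 4 lines). The KO mean was 133 ± 105 CPM (SD, n = 4 lines). Relative to the mean of the WT lines of its own dysplasia class, Cdkn2a was 3.04 times as high for line 1270, 3.32 times for line 650, 5.01 times for line 801 and 11.3 times for line 794. The knockout made ex vivo and the non-dysplastic knockout made in vivo thus had close line sums, which differed by 1.09-fold. Their library ranges overlapped only through the library of line 650 that stood apart, at 86.6 CPM. The other library of line 650, at 48.1 CPM, lay below both libraries of line 1270, at 58.7 and 60.5 CPM.

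In single libraries the 2 genotypes did not overlap either. WT libraries ran from 15.4 to 34.4 CPM of Cdkn2a and KO libraries from 48.1 to 394 CPM. The libraries of line 300 were at 15.7 and 19.9, of line 1269 at 15.4 and 26.9, of line 565 at 25.4, 24.4 and 34.4, and of line 752 at 18.4, 18.6 and 31.7 CPM. Those of line 650 were at 48.1 and 86.6, of line 1270 at 58.7 and 60.5, of line 794 at 259, 236 and 394, and of line 801 at 92.4, 112 and 219 CPM. In the order of the lines, the 4 WT lines had library ranges that overlapped between neighbours, as did lines 1270 and 650. Without the libraries that stood apart, the ranges of lines 752 and 565 did not overlap, nor did those of lines 1270 and 650. Steps without overlap lay between line 565 and line 1270 (2.07-fold), between line 650 and line 801 (1.96-fold) and between line 801 and line 794 (2.26-fold). Separation of all 4 KO from all 4 WT lines was seen for 2.38% of the tested genes, and Cdkn2a was the 1 gene of the 9 that had it. Since Cdkn2a was picked on this contrast, its separation is a description.

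**Figure D1:**
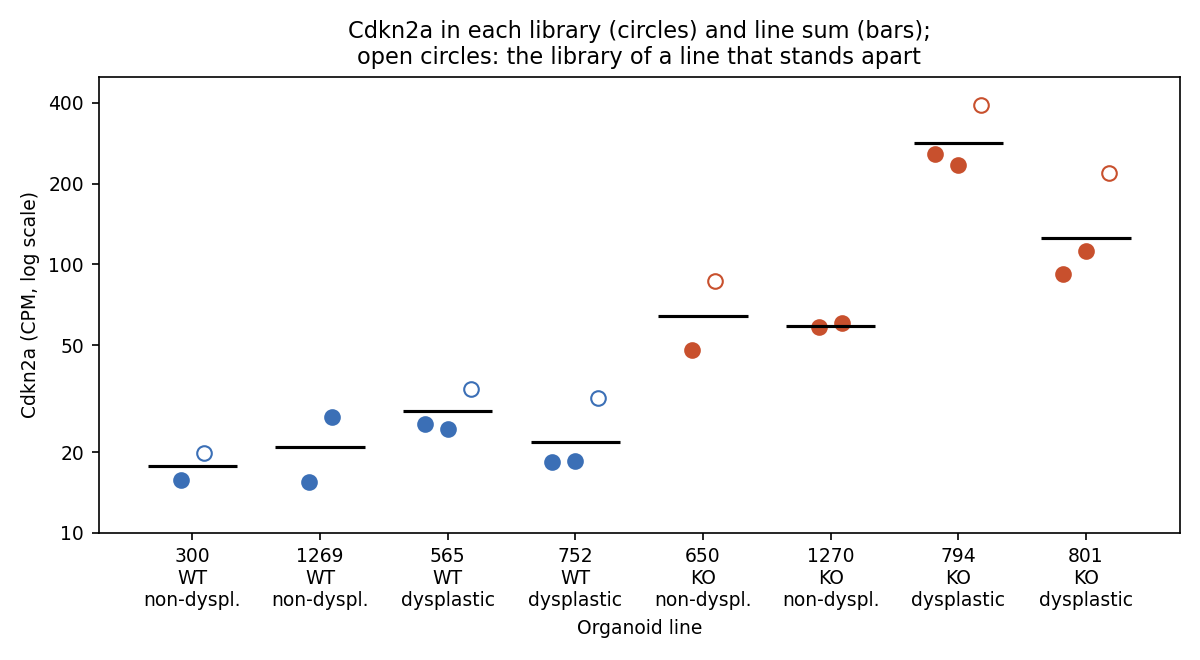
Cdkn2a in CPM (vertical, log scale) for each library (circles) of the 8 organoid lines (horizontal), with bars at the level of the summed line, WT in blue and KO in red, open circles for the 6 libraries that stood apart. All KO libraries sit at or above 48.1 CPM and all WT libraries at or below 34.4 CPM.

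The fitted log2 fold change of Cdkn2a in KO over WT was 2.35 ± 0.27 (SE) as a mean of both dysplasia classes. It was 1.67 ± 0.37 among non-dysplastic and 3.03 ± 0.39 among dysplastic lines, a difference of 1.36 ± 0.52. Line 794 carried part of that difference, which was 0.65 without it, the value in dysplastic lines then being 2.32. Without the 6 libraries that stood apart, the mean over both classes was 2.29, the value in non-dysplastic lines 1.55 and that in dysplastic lines 3.03.

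Dysplasia was compared with its absence over the same 8 lines, a contrast that did not choose Cdkn2a. In WT, dysplastic lines had 21.8 and 28.4 CPM of Cdkn2a and non-dysplastic lines 17.8 and 20.8. In KO, dysplastic lines had 126 and 285 CPM and non-dysplastic lines 58.8 and 64.2. By line sums, dysplastic lines were higher within each genotype. In WT the step from line 1269 to line 752 was 1.05-fold, with overlapping library ranges. Libraries of line 752 ran from 18.4 to 31.7 CPM, the highest being the library that stood apart, and line 1269 held no such library. The order of these lines in WT therefore rests on that library. Over all 8 lines the 2 classes overlapped, as WT dysplastic lines lay below KO non-dysplastic ones. The log2 fold change was 1.06 ± 0.26 (SE), with a 95% interval of 0.44 to 1.68. Its adjusted p over all genes was 0.60 in edgeR's quasi-likelihood test, which called 0% of genes. DESeq2 on line sums called Cdkn2a here (log2 fold change 1.06, adjusted p = 0.018), as it did 1.15% of genes. With limma-voom on libraries, lines as correlated blocks, the value was 1.02 with an adjusted p of 0.067 (1.09% of genes called), and with a term for the 6 libraries 0.97 with an adjusted p of 0.048. Without the 6 libraries edgeR gave 1.00 with an adjusted p of 0.45. Leaving out line 794 lowered the log2 fold change to 0.70, with an adjusted p of 0.72 in edgeR, and leaving out line 801 raised it to 1.29. The difference was therefore past the threshold with some tools and not with the main test. Both lines that were male by Xist and Ddx3y, 300 and 650, are non-dysplastic, and all dysplastic lines were female. The part of sex in the difference was not tested. With 1 line made ex vivo, mode of knockout and line cannot be told apart.

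Cdkn2b encodes p15, lies next to Cdkn2a and inhibits the same kinases. It was 60.2, 43.7, 70.6 and 89.8 CPM in WT lines 300, 1269, 565 and 752, and 99.4, 42.7, 129 and 94.9 CPM in KO lines 650, 1270, 794 and 801. Line 1270, made ex vivo, was the lowest of all 8 lines, while the 3 KO lines made in vivo were the highest, so that the genotypes overlapped. KO minus WT was 0.47 ± 0.28 (SE) in log2, with a 95% interval of -0.21 to 1.14 and an adjusted p of 1.0 in edgeR. Dysplastic minus non-dysplastic was 0.64 ± 0.29, with an interval of -0.04 to 1.32 and an adjusted p of 0.88. Leaving out line 650 turned the non-dysplastic KO difference of Cdkn2b from 0.45 to -0.28. In this sense line 650 and line 1270, alike in the line sum of Cdkn2a, were unlike in Cdkn2b.

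The ratio of Cdkn2a to Cdkn2b counts is given as a description, since Cdkn2a was picked for its higher level in KO lines. It was between 0.24 (line 752) and 0.48 (line 1269) in WT lines. KO lines 650, 1270, 801 and 794 had ratios of 0.65, 1.38, 1.32 and 2.20. Mtap, the metabolic gene on the other side of the locus, was between 123 and 151 CPM in WT lines and between 123 and 161 CPM in KO lines, with a KO difference of 0.09 in log2. Dmrta1, the next gene beyond Cdkn2b, had at most 3 counts in any line, and no fold is given.

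Cdkn2c encodes p18. It was 14.0, 13.2, 14.2 and 14.7 CPM in WT lines 300, 1269, 565 and 752, and 10.4, 14.4, 11.3 and 11.1 CPM in KO lines 650, 1270, 794 and 801. The 3 KO lines made in vivo lay below all WT lines, and line 1270 lay within them. The KO difference was -0.25 ± 0.15 in log2, with an interval of -0.62 to 0.12 and an adjusted p of 1.0 in edgeR.

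Cdkn2d, encoding p19INK4d, which is not the ARF protein, was close to the lower limit of these data, with 6 to 48 counts per line. Its values were 0.57, 0.95, 0.55 and 0.44 CPM in WT lines 300, 1269, 565 and 752, and 0.26, 0.71, 1.38 and 0.55 CPM in KO lines 650, 1270, 794 and 801. Line 794 had the highest and line 650 the lowest value, so KO lines spanned the WT range. The interval of the KO difference, -1.06 to 1.39 in log2, is the widest of the 9 genes, and the counts behind it are few.

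Cdkn1b encodes p27, which acts on CDK2 and accumulates in cells that leave the cycle. It was 62.4, 41.9, 53.3 and 65.1 CPM in WT lines 300, 1269, 565 and 752, and 74.5, 65.0, 84.7 and 63.4 CPM in KO lines 650, 1270, 794 and 801. KO lines 1270 and 801 lay below WT line 752, so the genotypes overlapped. The KO difference was 0.37 ± 0.17 in log2, with an interval of -0.05 to 0.79 and an adjusted p of 1.0 in edgeR. Dysplasia gave 0.13 ± 0.17.

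**Figure D2:**
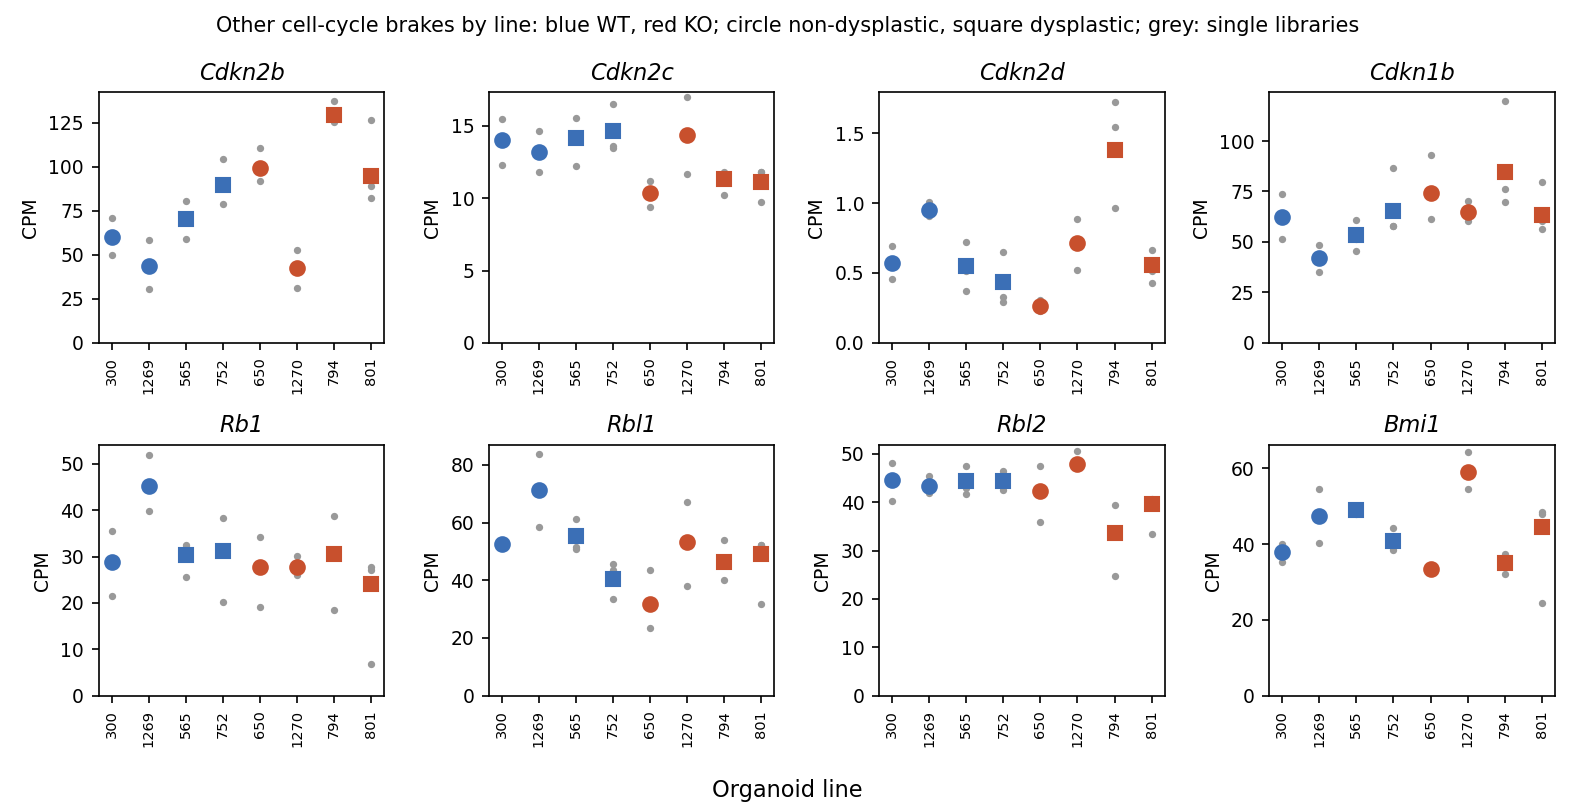
Level of the other 8 genes in CPM (vertical, from 0) for each organoid line (horizontal), one panel per gene, with line sums in colour (blue WT, red KO, circles non-dysplastic, squares dysplastic) and single libraries as grey points. KO and WT lines overlap in every panel, as in Cdkn2b, where KO line 1270 at 42.7 CPM is below all WT lines.

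Rb1, the retinoblastoma gene itself, was 28.8, 45.3, 30.3 and 31.2 CPM in WT lines 300, 1269, 565 and 752, and 27.7, 27.8, 30.5 and 24.0 CPM in KO lines 650, 1270, 794 and 801. WT line 1269 stood well above all others, and line 794 lay within the WT range. The KO difference was -0.30 ± 0.17 in log2, with an interval of -0.70 to 0.11. Of the 9 genes, Rb1 had the largest median difference in the libraries that stood apart.

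Rbl1, which encodes p107 and is a known E2F target, was 52.7, 71.2, 55.2 and 40.3 CPM in WT lines 300, 1269, 565 and 752, and 31.7, 53.4, 46.4 and 49.3 CPM in KO lines 650, 1270, 794 and 801. The genotypes overlapped, with line 650 lowest and line 1269 highest. The KO difference was -0.27 ± 0.21 in log2 (interval -0.76 to 0.22), made up of -0.54 in non-dysplastic and 0.00 in dysplastic lines.

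Rbl2 encodes p130, the family member typical of resting cells. It was nearly constant in WT lines, at 44.5, 43.4, 44.3 and 44.3 CPM in lines 300, 1269, 565 and 752. KO lines 650, 1270, 794 and 801 had 42.4, 48.0, 33.6 and 39.7 CPM. Line 1270 was the highest and line 794 the lowest of all 8 lines. The KO difference was -0.12 ± 0.11 in log2, with an interval of -0.37 to 0.13, the narrowest of the 9 genes.

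Bmi1 was 37.8, 47.3, 49.1 and 40.9 CPM in WT lines 300, 1269, 565 and 752, and 33.4, 59.0, 35.1 and 44.5 CPM in KO lines 650, 1270, 794 and 801. KO line 1270 was the highest and KO line 650 the lowest. The KO difference was -0.03 ± 0.21 in log2, with an interval of -0.52 to 0.46, and the dysplasia difference was -0.07 ± 0.21. Lines 650 and 1270, which had near-equal line sums of Cdkn2a, thus lay at opposite ends for Bmi1.

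None of the 8 genes beside Cdkn2a was called in any comparison. In edgeR the smallest adjusted p among them was 0.88, for Cdkn2b in dysplasia, and none had an unadjusted p under 0.05 in any of 5 comparisons. Over all genes edgeR called 0 genes in each comparison, with 543 of 13476 at an unadjusted p under 0.05 for KO against WT and 797 for dysplasia. DESeq2 called 0.46% of genes for KO against WT, 0.045% in non-dysplastic and 0.478% in dysplastic lines, and limma-voom called 0.497%, 0.0395% and 0.797%. None of these calls was 1 of the 8. For KO against WT as a mean, 3 of the 8 were positive and 5 negative, and their median log2 fold change was -0.07, beside -0.01 over all tested genes. A p that misses the threshold does not show that a gene was the same in both genotypes. Trp53, the gene knocked out, was itself not called by edgeR for KO against WT (log2 fold change -3.17, adjusted p = 0.74). The lack of an edgeR call therefore says little about the 8 genes. For the 6 genes other than Cdkn2b and Cdkn2d, the bound farthest from 0 was 0.79 (Cdkn1b) on the log2 scale.

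**Figure D3:**
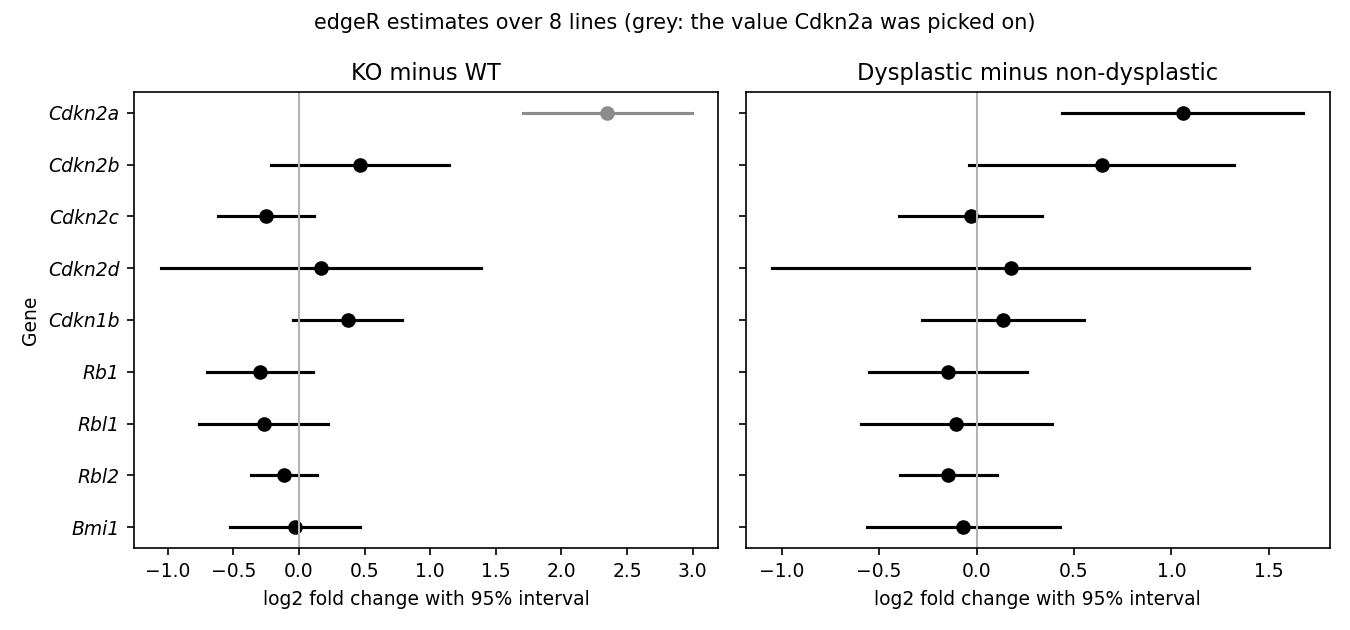
Log2 fold change (horizontal) with its 95% interval from edgeR over 8 lines for the 9 genes (vertical), KO minus WT at left and dysplastic minus non-dysplastic at right, the grey point being the value on which Cdkn2a was picked. Intervals of the other 8 genes cross 0 in both panels, and that of Cdkn2a for dysplasia runs from 0.44 to 1.68.

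Separation within a dysplasia class is common with 2 lines against 2. In non-dysplastic lines, Cdkn2a and Cdkn1b were higher and Rb1 lower in both KO lines than in both WT lines, where 20.1% of all genes were separated in either direction. In dysplastic lines, Cdkn2a, Cdkn2b and Cdkn2d were higher and Cdkn2c and Rbl2 lower in both KO lines, against 37% of all genes. For dysplasia, with 4 lines against 4, none of the 9 genes was separated, against 3.06% of all genes. No gene beside Cdkn2a was separated in both classes.

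Levels of different genes were compared per length, as CPM per kilobase of the longest basic GENCODE transcript. In WT lines Cdkn2b was highest at 47.5 ± 13.9 (SD, n = 4 lines), ahead of Cdkn2a at 24.8 ± 4.97, Cdkn1b at 12.2, Bmi1 at 12.2, Rbl1 at 11.3, Rbl2 at 8.96, Rb1 at 7.28, Cdkn2c at 5.67 and Cdkn2d at 0.44. In KO lines Cdkn2a came first at 149 ± 118, ahead of Cdkn2b at 65.9 ± 25.9, and the order of the other 7 was unchanged. Cdkn2a was above Cdkn2b per kilobase in KO lines 1270, 794 and 801. In line 650 they were at 71.7 and 71.5, in a sum that includes the library that stood apart. In every WT line Cdkn2a was below Cdkn2b.

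The libraries that stood apart shifted some of the 9 genes in a common direction. In all 6 lines, Cdkn2a, Cdkn2b and Cdkn1b were highest and Rb1 and Rbl2 lowest in that library, so 5 of the 9 genes did so. Over all tested genes 42.7% were highest or lowest in that library in all 6 lines. The median difference from the sister libraries was 0.71 for Cdkn2a on the log2(CPM + 1) scale, from 0.33 in line 300 to 1.09 in line 801. It was 0.30 for Cdkn2b, 0.55 for Cdkn1b, -0.79 for Rb1 and -0.26 for Rbl2, with -1.86 for Rb1 in line 801. There Rb1 was at 27.8 and 27.2 CPM in the first 2 libraries and at 6.86 CPM in the third. Cdkn2a also differed by 0.77 between the libraries of line 1269, which holds none of the 6.

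**Figure D4:**
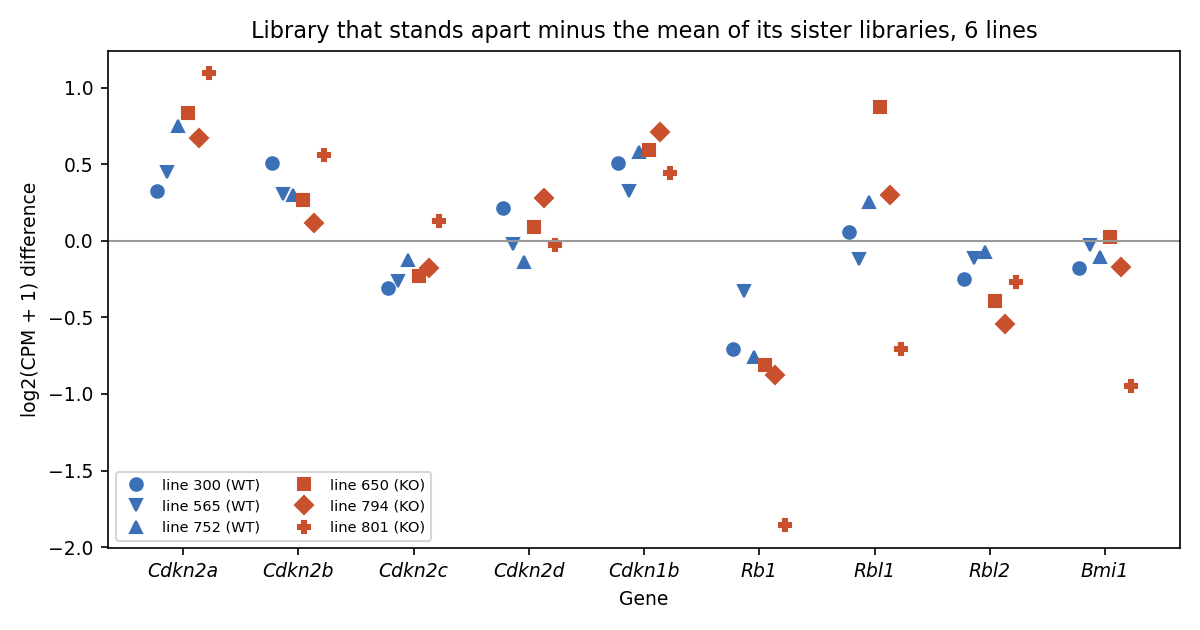
Difference in log2(CPM + 1) (vertical) between the library that stood apart and the mean of its sister libraries, for the 9 genes (horizontal) in 6 lines (symbols, WT in blue and KO in red). Cdkn2a, Cdkn2b and Cdkn1b lie above 0 and Rb1 and Rbl2 below 0 in all 6 lines.

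Other genes of the pathway were taken from 12 lists, of which 86 entries were tested. None was called by edgeR in any comparison, and 3 of the 86 had an unadjusted p under 0.05 for KO against WT and 4 for dysplasia. Among the other CIP/KIP genes and Cdkn3, 2 were positive and 1 negative in KO lines. Cdkn1a, which encodes p21 and is the classic p53 target, was between 224 and 425 CPM in WT lines and at 196, 32.1, 211 and 95.8 CPM in KO lines 650, 1270, 794 and 801, a log2 fold change of -1.19 ± 0.56 with an adjusted p of 1.0. Every KO line was below every WT line, and separation in either direction was seen for 2.38% of all tested genes. Cdkn1c, which encodes p57, was between 6.31 and 7.79 CPM in WT lines and at 7.46, 13.9, 11.1 and 13.1 CPM in KO lines 650, 1270, 794 and 801, a log2 fold change of 0.73 ± 0.23. Line 650 lay within the WT range. Cdkn3, a phosphatase of CDK2, ran from 19.2 to 35.6 CPM over all lines.

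Partners of ARF included Mdm2, which is also a p53 target. It was between 102 and 205 CPM in WT lines and between 39.3 and 77.5 CPM in KO lines, a log2 difference of -1.11 ± 0.28 (edgeR adjusted p = 0.99). All 6 ARF partners had negative values in KO lines, with a median of -0.19, where 51.5% of all tested genes were negative. They include Trp53, the gene knocked out, and its target Mdm2, so the 6 signs are a description. Npm1, Ubtf and Huwe1 were near 0, at -0.09, -0.07 and -0.003. Mdm4, a relative of Mdm2, was between 24.9 and 41.2 CPM in WT lines and between 22.3 and 26.9 CPM in KO lines.

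Of 9 G1 cyclins and CDKs, 8 were negative in non-dysplastic KO lines, with a median of -0.30, and 3 in dysplastic KO lines, with a median of 0.10. Ccnd1, the D-type cyclin that CDK4 needs, was 626 and 965 CPM in non-dysplastic WT lines and 494 and 421 CPM in KO lines 650 and 1270, a log2 fold change of -0.80 ± 0.29 with an adjusted p of 1.0. Ccnd2 and Ccne1 had -0.95 ± 0.48 and -0.72 ± 0.43 there. Of 10 E2F and DP factors, 9 were negative in non-dysplastic KO lines (median -0.27) and 4 in dysplastic ones (median 0.04), and all 10 were negative for dysplasia (median -0.19). Tfdp2, an E2F partner, was lowest in line 794 at 31.5 CPM and highest in line 1270 at 83.0 CPM.

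E2F targets are the S phase genes at the end of this pathway. All 10 were negative in non-dysplastic KO lines, with a median of -0.42 beside -0.02 over all genes, of which 54.5% were negative. In dysplastic KO lines 8 of 10 were positive, with a median of 0.10. None was called or had an unadjusted p under 0.05 in edgeR in any of the 5 comparisons. Rrm2 was 102 and 176 CPM in non-dysplastic WT lines and 53.6 and 114 CPM in lines 650 and 1270, so that line 1270 lay within the WT range, and Tyms was 84.0 and 99.0 against 59.9 and 83.0 CPM. Line 650 was the lowest of the 8 lines for both genes. The list of MuvB and DREAM subunits held Mybl2 beside the MuvB subunits, which join Rbl1 and Rbl2 in repression. Of its 6 genes, 6 were negative in non-dysplastic KO lines and 1 in dysplastic ones.

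Among 15 PRC1 subunits other than Bmi1, 11 were positive and 4 negative for KO against WT, with a median of 0.10. Pcgf6 had the smallest p of these in dysplasia. It was 43.2, 33.6, 33.9 and 33.7 CPM in non-dysplastic lines 300, 1269, 650 and 1270. In dysplastic lines 565, 752, 794 and 801 it was 28.8, 25.9, 23.4 and 26.0 CPM, so that the classes did not overlap. Such separation in either direction was seen for 3.06% of all tested genes, and Pcgf6 was named for its small p. Its log2 fold change was -0.47 ± 0.12 with an adjusted p of 0.63 in edgeR. Phc2 had 0.28 ± 0.12. Of 5 PRC2 subunits 4 were negative for KO against WT, with a median of -0.04.

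Regulators of the Cdkn2a locus were tested for 9 of 12 genes, and 6 of these 9 were negative in KO lines, with a median of -0.01. Id1, known to restrain Ets factors, was 108 CPM in line 794, where Cdkn2a was highest, and between 214 and 290 CPM in the other 7 lines. Myc ran from 92.7 to 168 CPM, and Kdm6b, a demethylase that removes the Polycomb mark, from 49.1 CPM in line 300 to 93.0 CPM in line 794. Of 4 genes of p27 turnover, Cks1b, the cofactor of the ligase that degrades p27, was 66.7 and 57.4 CPM in dysplastic WT lines and 124 and 89.8 CPM in lines 794 and 801, a log2 fold change of 0.78 ± 0.22 with an adjusted p of 1.0 in edgeR. Senescence-associated genes were tested for 8 of 9, of which 5 were positive in KO lines, with a median of 0.01. Il1a was lowest in line 1270 at 1.98 CPM and highest in line 794, followed by line 801 at 26.5 CPM.

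The genes whose pattern over the 8 lines was most like that of Cdkn2a were named by Pearson's r of log2(CPM + 1) among 10714 genes. They were Ccdc88a (0.96), Pdpn (0.95), Rtp4 (0.95), Fcho1 (0.95), Elk1 (0.95) and B4galt3 (0.94). All had their highest value in line 794 and their second highest in line 801. Over the 20 single libraries, r with Cdkn2a was 0.62 for Ccdc88a, 0.94 for Pdpn and 0.88 for Rtp4. It was 0.87 for Fcho1, 0.91 for Elk1 and 0.82 for B4galt3. Pdpn, a membrane glycoprotein, was 14.7 CPM in line 794 and 9.56 CPM in line 801, and between 0.81 and 3.08 CPM in the other 6 lines. Rtp4, an interferon-induced gene, was 18.3 CPM in line 794 and 6.75 CPM in line 801, and at most 2.26 CPM elsewhere. The others changed less, B4galt3 running from 38.0 to 56.5 CPM. Of the other 8 brakes, Cdkn1b had an r of 0.69 with Cdkn2a, Cdkn2b 0.63 and Cdkn2d 0.43, while Rbl2 had -0.78 and Cdkn2c -0.71. Trp53 had -0.82. The lines share genotype and libraries, so these are descriptions.

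**Figure D5:**
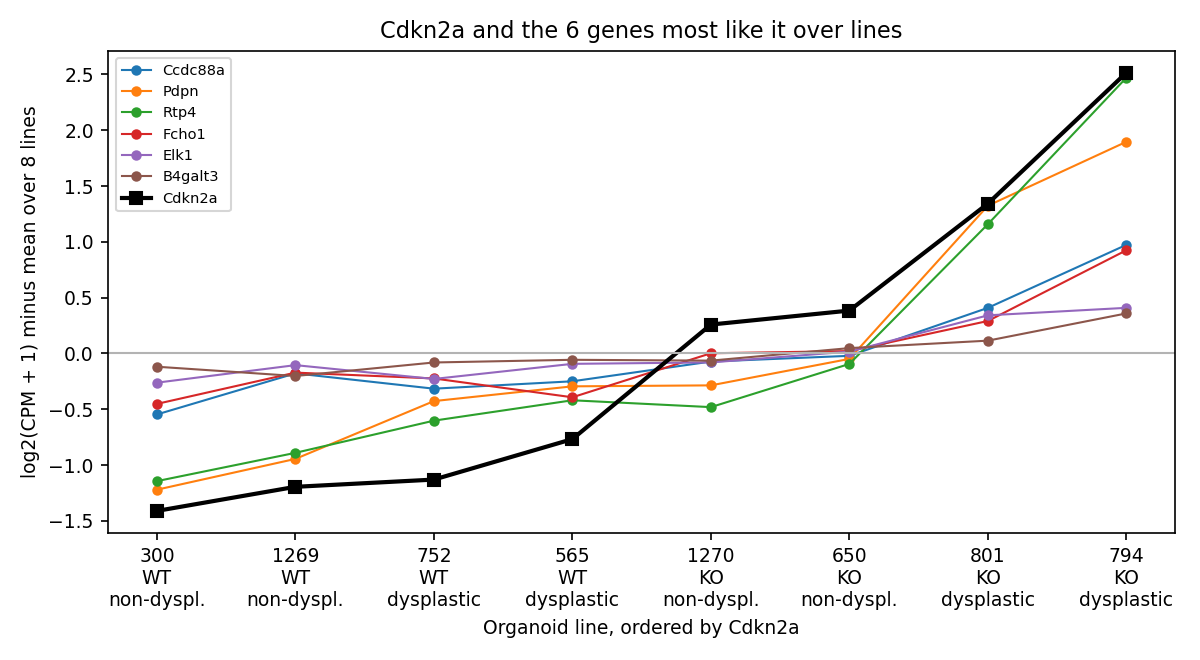
Log2(CPM + 1) minus its mean over 8 lines (vertical) for Cdkn2a (black) and the 6 genes most like it (colours) in each line (horizontal, ordered by Cdkn2a). All 7 curves peak in line 794, with Pdpn and Rtp4 following Cdkn2a in size and B4galt3 spanning 38.0 to 56.5 CPM.

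Markers of other cell types were looked at beside these results. In bulk RNA, more cells of a type and more RNA per cell cannot be told apart. The summed CPM of 8 fibroblast markers was between 7.27 and 9.67 in WT lines and 41.6, 8.42, 15.5 and 19.1 in KO lines 650, 1270, 794 and 801. The sum was above the WT range in 3 of 4 KO lines and within it in line 1270. All 5 fibroblast markers that passed the filter were positive for KO against WT, with a median log2 fold change of 1.20, and none was called. Col1a1 was between 2.14 and 3.25 CPM in WT lines and at 18.2, 2.66, 5.94 and 7.76 CPM in the KO lines in the same order, and Vim had a log2 fold change of 1.20 ± 0.47. Dcn and Lum were at most 0.20 and 0.35 CPM in any line. The smooth muscle sum ran from 3.93 to 60.4 in WT lines and was 58.9, 5.44, 1.67 and 106 in the KO lines in the same order, lowest in line 794. The sum of the 5 immune markers in the file was between 19.2 and 52.4 in WT and between 9.45 and 32.9 in KO lines. The endothelial sum was at most 3.40. The part of these cell types in the results was not tested.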

How the data were processed

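RNA-seq was measured in 20 libraries of 8 lines. The submitters' processing notes name bcl2fastq, STAR 2.5 and build mm9. The sources used here give neither annotation nor counter nor use of strand, and overlapping or antisense genes cannot be told apart. The authors deposited raw, unnormalized counts for each gene symbol. Groups came from the labels, and libraries with the same title number were summed per line.

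In R 4.3.3, edgeR 4.0.16 was used on line sums with filterByExpr, TMM scaling, one mean per combination of genotype and dysplasia (4 residual degrees of freedom), the robust quasi-likelihood test and Benjamini-Hochberg adjustment over 13476 genes at 0.05. An SE is the log2 fold change divided by the square root of F. DESeq2 1.42.0 and limma-voom (limma 3.58.1, with lines as correlated blocks) were alternatives. DESeq2's percentages are of genes with an adjusted p. CPM values are TMM-scaled, and mean ± SD is over lines. The procedure was tested on simulated data. CPM per kilobase used the longest basic transcript of GENCODE vM21.

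The genes and lists were chosen with earlier results of these data known. Genes named were the 9 brakes, Trp53, from each list the called members or up to 3 with the smallest unadjusted p over the 5 comparisons, and the 6 genes with the highest r with Cdkn2a and a mean log2 CPM above 2. Some of these are given by their counts alone. A few list members that the rule names are not reported here.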

Additional observations from a re-analysis of the deposited data

Results flagged for a closer look

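In 36 groups of 4 lines (the 9 genes in WT, KO, dysplastic and non-dysplastic lines), the line farthest out was compared with the others by Dixon's test, which flags about 1 in 20 groups by chance. It marked 4 groups. Cdkn2d was 1.38 CPM in line 794, with the other dysplastic lines between 0.44 and 0.55 CPM, values that rest on 16 to 48 counts. Rb1 was 45.3 CPM in line 1269, with the other WT lines between 28.8 and 31.2 CPM and the other non-dysplastic lines between 27.7 and 28.8 CPM, which gave a mark in both groups. Rb1 was 24.0 CPM in line 801, with the other dysplastic lines between 30.3 and 31.2 CPM, and its library numbered 3 was at 6.86 CPM.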

How the results depend on the processing

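Each of 45 log2 fold changes (9 genes in 5 comparisons) was recomputed under 15 alternatives. Of 675 values, 620 kept their direction and side of the threshold and 42 changed sign. Cdkn2a was newly called for dysplasia in 2. Its KO contrast chose it and carries no test. None of the sign changes is of Cdkn2a, and none starts from a size above 0.45. Against 0 genes called by edgeR, DESeq2 called 74 for KO against WT, 6 in non-dysplastic lines, 72 in dysplastic lines and 157 for dysplasia. Limma-voom called 63, 5, 101 and 138, and with a term for the 6 libraries 41, 2, 34 and 89. Neither called a gene for the interaction. Leaving out lines gave 0 to 1 calls for KO against WT and 0 to 3 in dysplastic lines, the calls arising without line 801. The cause of these differences was not tested.

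Libraries share replicate numbers, and deviations of same-numbered libraries correlated between -0.84 and 0.82 over 62 pairs (mean 0.14, against -0.07 for other numbers), so the numbers did not pair them throughout, although every library numbered 3 is among the 6 that stood apart. With a replicate block limma-voom called 45, 1, 39 and 101 genes, and the dysplasia value of Cdkn2a was 0.75 (adjusted p = 0.16). Under it the dysplasia value changed sign to -0.018 for Cdkn1b, 0.062 for Rb1 and 0.0052 for Bmi1, and the dysplastic KO value of Rbl1 to -0.016. That value was also -0.011 without a filter and -0.027 in limma-voom. Without the 6 libraries the dysplasia value of Rbl1 was 0.00054.

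Leaving out each line gave the following ranges where a sign changed. For KO against WT they were -0.29 to 0.43 for Cdkn2d and -0.27 to 0.14 for Bmi1. In non-dysplastic lines they were -0.28 to 0.96 for Cdkn2b, -0.37 to 0.081 for Cdkn2c, -0.032 to 0.13 for Rbl2 and -0.33 to 0.47 for Bmi1, and in dysplastic lines -0.21 to 0.23 for Rbl1. For dysplasia they were -0.14 to 0.10 for Cdkn2c, -0.23 to 0.62 for Cdkn2d, -0.29 to 0.035 for Rb1, -0.27 to 0.10 for Rbl1 and -0.25 to 0.16 for Bmi1. For the interaction they were -0.50 to 0.76 for Cdkn2b, -0.42 to 0.10 for Cdkn1b, -0.18 to 0.52 for Rb1 and -0.66 to 0.13 for Bmi1.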
